A study of Rattus norvegicus with 4 samples.

Results

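A list of 32 genes of cholesterol synthesis, its regulation and the uptake, storage and efflux of sterols was followed in cultured rat ovaries with and without glial cell line-derived neurotrophic factor (GDNF). Members were taken by name: a probe set counted if its platform symbol was exactly 1 listed gene, and the brightest probe set over the 4 arrays stood for the gene. Of the 32 genes, 30 had such a probe set and 29 passed the filter on low signals, among 10608 genes tested. They divide by role into 17 synthesis genes, 6 regulators and 6 genes of uptake, storage and efflux. Hmgcs1 and Npc1 lacked a probe set carrying their symbol alone, so neither is analysed here, and Nr1h3, a sterol-sensing liver X receptor, lay below the filter at signals of 18.3 and 11 in the controls and 18.3 and 16.6 with GDNF.

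Ovaries came from rat pups aged 4 days (strain not given in the labels), were kept on floating filters for 2 days, and were pooled at 6 to 10 per RNA sample. The control group (2 samples) received no factor and the GDNF group (2 samples) received GDNF at a dose not given in the sources used here. The protocol text is the same for all 4 samples and describes the untreated culture, so the groups rest on the sample titles and descriptions. Both groups shared a medium with 0.1% bovine serum albumin, 0.1% Albumax (a lipid-rich albumin preparation), 200 ng/ml insulin, transferrin and ascorbic acid, and no serum is listed. One Affymetrix array was read per sample, and whether replicates came from separate litters is not stated, so each p-value reflects the spread of these 4 samples, part of which may be technical.

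Cells make cholesterol from acetyl-CoA through mevalonate, isoprenoid diphosphates, squalene and lanosterol. Transcription of most of these enzymes is driven by SREBP-2 (Srebf2), a membrane-bound factor that the escort protein Scap carries to the Golgi for cleavage when sterols are low and that Insig1 and Insig2 hold back when sterols are plentiful. SREBP-1 (Srebf1) acts mainly on fatty acid synthesis, and the liver X receptors turn on efflux pumps such as Abca1 and Abcg1 when oxysterols accumulate. In the ovary, cholesterol is the precursor of all steroids, and oocytes depend on the surrounding granulosa cells for part of their sterol supply.

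Many of the members' promoters hold a sequence feature that did not enter their choice. RefSeq promoters (assembly GRCr8, 250 bases before to 50 bases after the annotated start) were found for 27 of the 32 genes, and the 5-letter motif CCAAT, the core of the site bound by NF-Y, lay on either strand in 19 of these 27 genes (70.4%). It was present in 12 of 15 synthesis genes, 4 of 7 regulators and 3 of 5 genes of uptake, storage and efflux, against 37.5% of all 33469 promoters in the table. At least 2 matches were found in 12 of the 27 genes, 10 of them synthesis genes, against 11.2% of all promoters. Members were counted by gene, though Srebf1 has 2 promoters. The shares of all promoters were counted by promoter and were not limited to genes on the array. A strict 9-letter sterol regulatory element, TCACNCCAC, was found in 0 of the 27 genes and in 1.12% of all promoters, which says only that these letters are not in these windows. The promoters below are those of the synthesis and regulatory members with the largest differences described further on, with that of Nsdhl, which, like Mvk, held 5 matches. Bases are in lower case except CCAAT or its reverse complement, in capitals, and each runs 5′ to 3′ along the gene. Srebf1 has 2 annotated starts on the minus strand, both shown. The Mvd window is chr19:67414925-67415224 (minus strand), Tm7sf2 chr1:212789492-212789791 (minus), Lss chr20:12118181-12118480 (minus), Nsdhl chrX:155817110-155817409 (plus), Srebf1 upstream chr10:45529115-45529414 and Srebf1 downstream chr10:45518961-45519260.
Mvd: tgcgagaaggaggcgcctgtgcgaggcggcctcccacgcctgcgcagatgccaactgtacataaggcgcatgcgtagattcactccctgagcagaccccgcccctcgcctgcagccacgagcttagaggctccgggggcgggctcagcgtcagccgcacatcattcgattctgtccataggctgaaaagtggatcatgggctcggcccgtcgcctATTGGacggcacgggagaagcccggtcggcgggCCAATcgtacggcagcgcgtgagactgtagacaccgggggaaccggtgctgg
Tm7sf2: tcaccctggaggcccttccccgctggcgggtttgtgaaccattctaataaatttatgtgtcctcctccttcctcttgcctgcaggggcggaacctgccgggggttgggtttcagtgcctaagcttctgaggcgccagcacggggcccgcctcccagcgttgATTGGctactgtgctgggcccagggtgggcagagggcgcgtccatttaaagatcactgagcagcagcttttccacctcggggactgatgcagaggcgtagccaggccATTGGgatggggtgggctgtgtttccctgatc
Lss: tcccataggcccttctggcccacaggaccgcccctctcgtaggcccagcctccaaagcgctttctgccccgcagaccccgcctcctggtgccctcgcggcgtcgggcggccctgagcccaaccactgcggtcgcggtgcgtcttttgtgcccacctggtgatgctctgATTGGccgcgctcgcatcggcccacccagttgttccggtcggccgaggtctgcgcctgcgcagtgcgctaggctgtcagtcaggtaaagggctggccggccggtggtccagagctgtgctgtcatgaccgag
Nsdhl: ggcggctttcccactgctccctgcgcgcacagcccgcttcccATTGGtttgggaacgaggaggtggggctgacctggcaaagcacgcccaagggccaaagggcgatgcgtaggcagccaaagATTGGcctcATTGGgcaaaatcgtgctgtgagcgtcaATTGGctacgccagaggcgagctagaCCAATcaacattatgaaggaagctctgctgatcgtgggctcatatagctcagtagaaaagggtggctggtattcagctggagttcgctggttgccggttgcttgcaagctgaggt
Srebf1 upstream start: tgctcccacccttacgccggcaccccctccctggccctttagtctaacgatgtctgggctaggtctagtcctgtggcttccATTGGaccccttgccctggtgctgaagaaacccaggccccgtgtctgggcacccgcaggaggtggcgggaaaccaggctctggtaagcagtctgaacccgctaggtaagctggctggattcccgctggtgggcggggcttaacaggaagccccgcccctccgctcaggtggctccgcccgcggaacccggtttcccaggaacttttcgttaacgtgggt
Srebf1 downstream start: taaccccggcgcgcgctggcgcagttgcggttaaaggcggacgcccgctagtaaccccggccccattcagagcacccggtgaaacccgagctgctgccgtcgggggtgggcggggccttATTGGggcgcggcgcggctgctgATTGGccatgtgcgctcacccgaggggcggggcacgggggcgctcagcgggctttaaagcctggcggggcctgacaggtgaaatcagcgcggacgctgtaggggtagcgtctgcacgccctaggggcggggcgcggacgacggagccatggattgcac

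**Figure D1:**
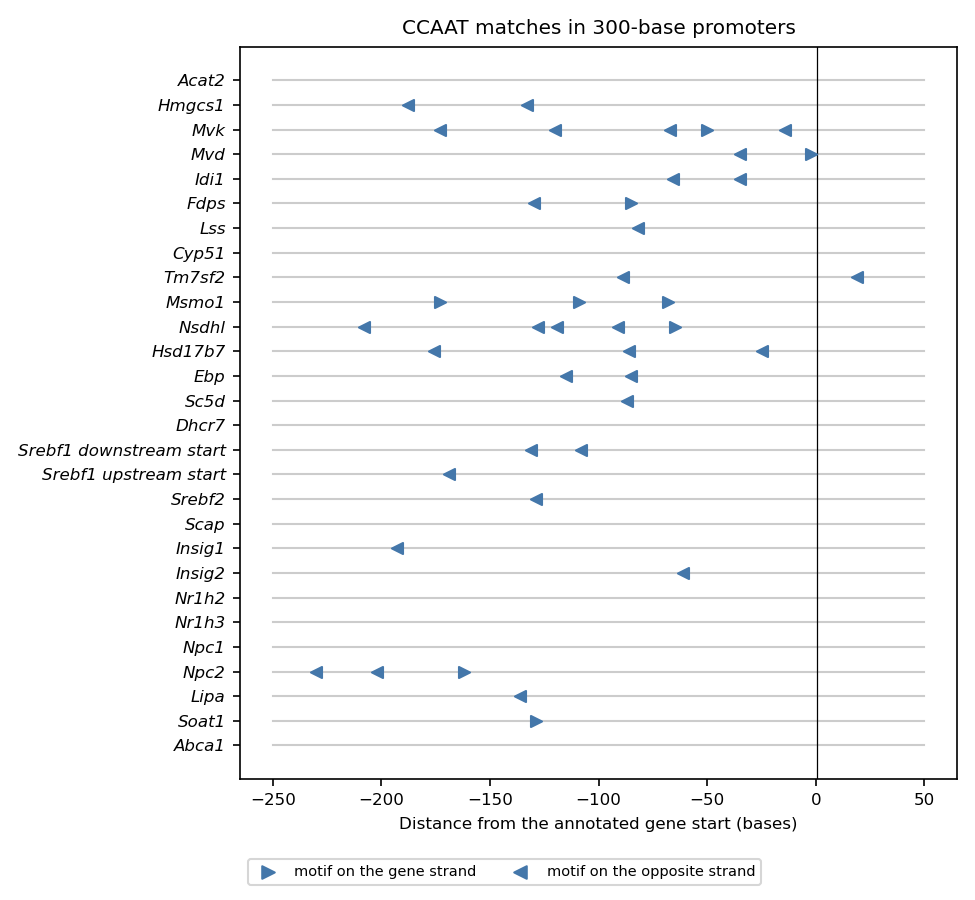
Positions of CCAAT matches (first base) in the promoters of the 27 members found in the RefSeq table, in bases from the annotated gene start; each grey line is a 300-base window, and arrowheads give the strand of the match. Matches lie in 19 of the 27 genes, and Mvk and Nsdhl hold 5 each.

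Array medians were 36.7 to 41.1 in signal, and all 4 arrays had been scaled to a common trimmed mean of 125.03 to 125.04, so a change in RNA per ovary cannot be seen. With only 2 arrays a group precision is low, and an exact permutation test of 2 samples against 2 cannot give a two-sided p under 0.333. Log2 differences are GDNF minus control on the log2(signal + 1) scale from limma, with its moderated standard error (SE), and ± is the SD of the 2 samples of a group.

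Across the sterol genes the cultures with GDNF and without it differed little. Of the 29 members tested, 16 averaged higher and 13 lower in GDNF ovaries, with a median log2 difference of 0.03, against 48.6% higher and a median of -0.0058 over the 10608 genes. The synthesis genes taken alone had 11 of 17 higher and a median of 0.04, which was 0.014 without GDNF replicate 2 and 0.077 without GDNF replicate 1. GDNF replicate 2 held the highest signal for 8 of the 17 synthesis genes (32.7% of all genes), and control replicate 1 the lowest for 8 (25.7% of all genes). The differences ran from -0.43 for Srebf1 to 0.44 for Mvd, which encodes mevalonate diphosphate decarboxylase. No member passed the threshold (limma adjusted p of at least 0.999 for all 29), and 0 of 18625 probe sets did (0%), while 508 probe sets had an unadjusted p under 0.05. One member, Mvd, had an unadjusted p under 0.05 with the higher mean in GDNF, against 1.23% of all genes, and 0 had one with the lower mean, against 1.89%. The groups did not overlap in 6 members higher in GDNF, where 13.8% of all genes did so, and in 4 lower, where 18.1% did so. These 10 members, Mvd, Fdps, Tm7sf2, Insig2, Nr1h2 and Abcg1 on the higher side and Lss, Srebf1, Npc2 and Soat1 on the lower, are a share of the list close to that of all genes.

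The 95% intervals of the differences bound what could have been missed for single genes. For the brightest probe set of 29 of 29 members the interval lay within a 2-fold change in either direction, and for 19 of 29 within a 1.5-fold change. Over all 10608 genes 9974 and 6825 did so. Dimmer probe sets of Abca1 (-1.08 to 0.86) and Soat1 (-0.76 to 1.03) had intervals that passed 2-fold. The interval of Mvd (0.015 to 0.86) was the only one among the 29 to leave out 0. The replicates of a group were further apart than the group means for most members: in 21 of 29 the larger of both replicate gaps exceeded the difference (79.5% of all genes). The GDNF samples were the more unequal pair in 21 of 29 members and in 58.5% of all genes. For the members the median gap on the log2 scale was 0.20 with GDNF against 0.11 between the controls. Over all genes these gaps were 0.18 and 0.14. Fewer cells of a type and less RNA per cell cannot be told apart in whole ovaries.

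**Figure D2:**
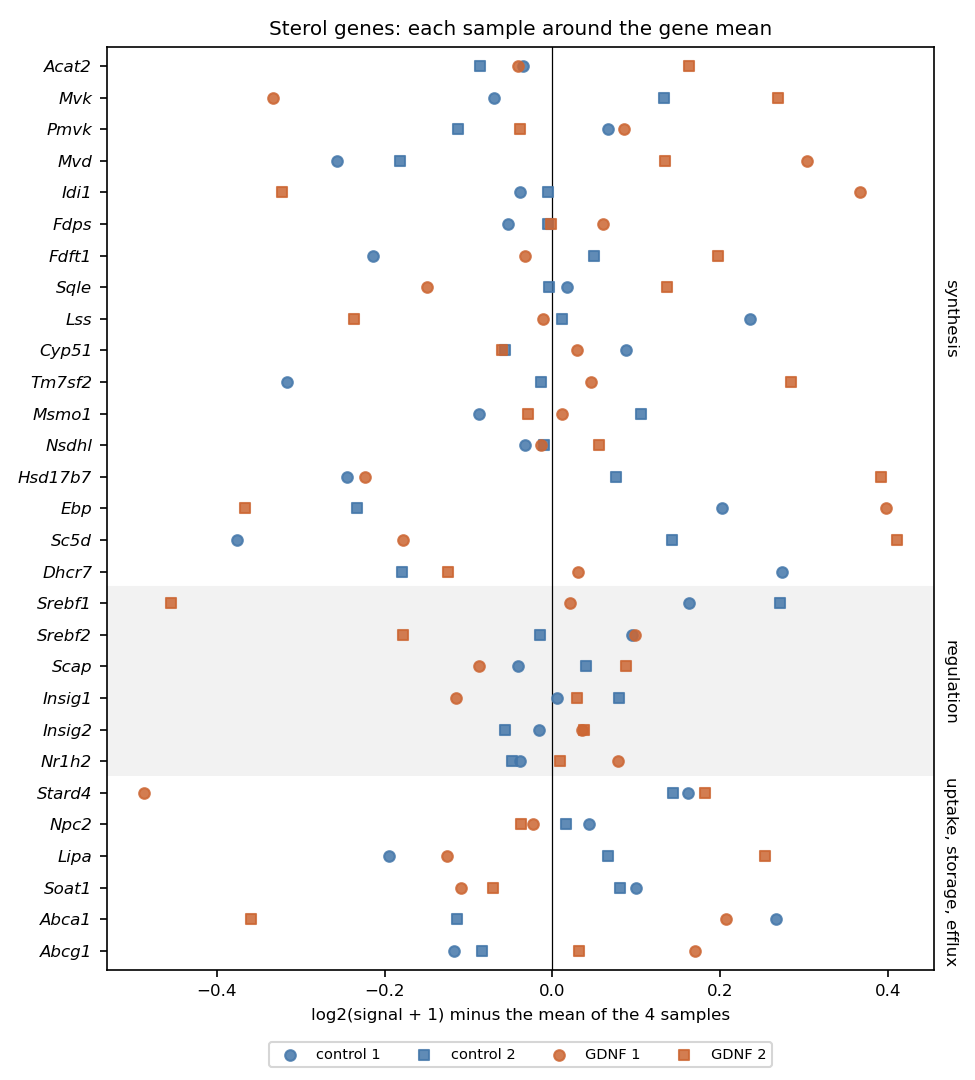
Each of the 29 members in the 4 samples, as log2(signal + 1) minus the gene's mean over the samples; circles are replicate 1, squares replicate 2, blue control and orange GDNF. In 21 of 29 genes the orange pair lies further apart than the blue pair.

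The mevalonate steps, which build isoprenoid units from acetyl-CoA, had 5 of 6 tested genes with a higher mean in GDNF ovaries and a median difference of 0.05. Mvd, the last step before isopentenyl diphosphate, had signals of 60.5 and 63.8 in the controls and 89.7 and 79.6 with GDNF. Both GDNF samples lay above both controls, at 84.7 ± 7.14 against 62.2 ± 2.33 (n = 2 each), a 1.35-fold ratio (log2 difference 0.44, SE 0.18, limma unadjusted p = 0.0442, adjusted p = 0.999). With each sample left out in turn it ran from 0.35 to 0.52.

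Fdps, which joins isoprenoid units into farnesyl diphosphate at the branch towards sterols, had 810.7 and 837.6 in the controls and 876.5 and 839.6 with GDNF. The groups did not overlap, but control replicate 2 and GDNF replicate 2 were nearly equal, and the log2 difference was 0.06 (SE 0.10, 95% interval -0.17 to 0.29). Acat2, a cytosolic thiolase at the head of the pathway, had 279.2 and 269.4 in the controls and 278.0 and 320.3 with GDNF, so that GDNF replicate 2 alone stood above the rest (0.12, SE 0.13).

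Idi1, which isomerises isopentenyl diphosphate, showed the widest gap between GDNF samples among these genes in signal. It had 538.7 and 551.4 in the controls, which lay between 714.1 and 442.3 in GDNF replicates 1 and 2, and the difference of 0.04 (SE 0.21) became -0.30 without GDNF replicate 1 and 0.39 without GDNF replicate 2. Its dimmer probe set also had GDNF replicate 1 highest and GDNF replicate 2 lowest, with 177.9 and 150.4 in the controls and 221.7 and 120.2 with GDNF. Mvk, mevalonate kinase, had the opposite arrangement, with 99.8 and 115.0 in the controls and 83.0 and 126.4 with GDNF (-0.06, SE 0.23). Without GDNF replicate 1 the difference of Mvk was 0.24 and without GDNF replicate 2 it was -0.36. Pmvk, phosphomevalonate kinase, ranged from 110.2 to 126.6 with overlapping groups (0.05, SE 0.16), and was -0.04 without control replicate 2.

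Squalene formation and ring closure held 3 genes, 1 averaging higher and 2 lower in GDNF ovaries. Sqle, squalene epoxidase, an oxygen-dependent and flux-limiting step, had 337.6 and 332.6 in the controls and 300.7 and 366.9 with GDNF. The controls lay between the GDNF samples, and the log2 difference was -0.013 (SE 0.13, 95% interval -0.33 to 0.30). It became 0.13 without GDNF replicate 1 and -0.16 without GDNF replicate 2. Lss, lanosterol synthase, which closes the sterol rings, had 129.5 and 110.7 in the controls and 109.0 and 93.1 with GDNF. Its groups did not overlap, yet GDNF replicate 1 and control replicate 2 were almost the same (-0.25, SE 0.17, 95% interval -0.65 to 0.16). Fdft1, squalene synthase, had 328.8 and 394.8 in the controls and 373.0 and 437.8 with GDNF (0.17, SE 0.14). Its dimmer probe set went the other way with no overlap, at 179.1 and 188.4 in the controls and 155.9 and 148.3 with GDNF (-0.27, SE 0.13).

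The steps from lanosterol to cholesterol had 5 of 8 genes averaging higher and 3 lower, and a median of 0.04. Tm7sf2, a sterol C14 reductase, had 114.9 and 142.0 in the controls and 148.1 and 174.8 with GDNF. Its groups did not overlap and the means stood 1.26-fold apart (0.33, SE 0.17, 95% interval -0.071 to 0.73, limma unadjusted p = 0.0927). Without control replicate 1 the difference of Tm7sf2 was 0.18 and without control replicate 2 it was 0.48.

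Ebp, Sc5d and Hsd17b7 varied more between replicates than between treatments. Ebp, the sterol isomerase that also binds emopamil, had 73.9 and 54.4 in the controls and 84.8 and 49.5 with GDNF, so in each group replicate 1 was the higher (0.03, SE 0.30). Sc5d, the lathosterol desaturase, had 132.9 and 190.8 in the controls and 152.6 and 229.9 with GDNF, with replicate 2 the higher in each group (0.23, SE 0.24). Hsd17b7, a 3-ketosteroid reductase of this pathway, had the same order, with 188.8 and 236.1 in the controls and 191.7 and 294.2 with GDNF (0.17, SE 0.22). Without GDNF replicate 2, Sc5d was -0.06 and Hsd17b7 -0.14, and without GDNF replicate 1, Ebp was -0.35.

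The remaining genes of this segment had close group means in their brightest probe sets, though the 2 controls of Dhcr7 were far apart. Cyp51, lanosterol demethylase, ranged from 455.1 to 504.4 (-0.03, SE 0.11), although its dimmer probe set was lower in GDNF ovaries with no overlap, at 203.0 and 204.7 against 182.8 and 166.2 (-0.22, SE 0.13). Msmo1, the methylsterol monooxygenase, ranged from 450.0 to 514.9 (-0.018, SE 0.12), and both extremes were control samples. Nsdhl, which removes a methyl group at C4, ranged from 173.5 to 184.6 (0.04, SE 0.13). Dhcr7, which makes cholesterol from 7-dehydrocholesterol, had 356.9 and 260.5 in the controls and 301.5 and 270.7 with GDNF (-0.09, SE 0.17), and was 0.13 without control replicate 1. With 1 sample left out, Cyp51 reached 0.04 (without control replicate 1) and Msmo1 0.08 (without control replicate 2).

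Regulators of sterol sensing had small differences, apart from a larger one for Srebf1 whose interval still included 0. Srebf1 had signals of 172.3 and 185.9 in the controls and 156.1 and 112.0 with GDNF. Both GDNF samples lay below both controls and GDNF replicate 2 was the lowest, at 134 ± 31.2 against 179 ± 9.62 (log2 difference -0.43, SE 0.19, 95% interval -0.87 to 0.0042, limma unadjusted p = 0.0517, adjusted p = 0.999). The dimmer probe set of Srebf1 had the same direction without overlap, at 74.2 and 67.3 in the controls and 65.2 and 50.2 with GDNF (-0.30, SE 0.21). Without GDNF replicate 2 the difference of Srebf1 was -0.20 and without GDNF replicate 1 it was -0.67. The files do not tie these probe sets to either annotated start of the gene.

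Srebf2, which encodes the factor that drives the synthesis enzymes, had 158.3 and 146.7 in the controls and 158.7 and 130.9 with GDNF. Control replicate 1 and GDNF replicate 1 were equal within 1 unit and the difference was -0.08 (SE 0.16, 95% interval -0.45 to 0.29), turning to 0.06 without GDNF replicate 2. Insig1, itself a target of SREBP, had 299.1 and 315.0 in the controls and 275.2 and 304.3 with GDNF with overlapping groups (-0.08, SE 0.12). Scap ranged from 339.9 to 384.0, with both extremes in the GDNF group and a difference of 0.00090 (SE 0.12).

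Insig2, the second retention protein, had 167.2 and 162.6 in the controls and 173.3 and 173.6 with GDNF, a small difference without overlap (0.07, SE 0.13). Its dimmer probe set was lower in GDNF, also without overlap, at 87.5 and 75.7 against 71.2 and 69.3 (-0.21, SE 0.18). Nr1h2, the liver X receptor found in most tissues, had 250.3 and 248.7 in the controls and 271.5 and 258.7 with GDNF (0.09, SE 0.12, 95% interval -0.19 to 0.36).

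**Figure D3:**
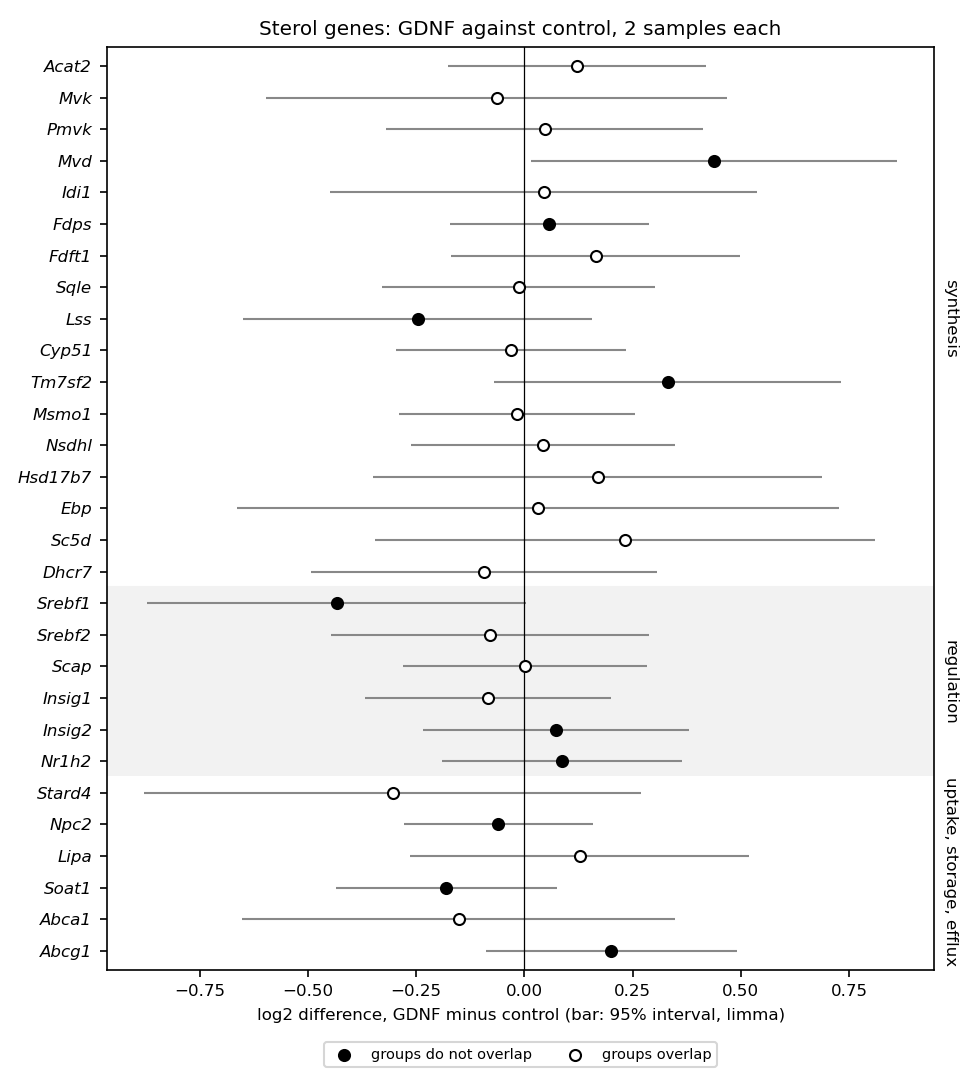
Log2 difference (GDNF minus control) of each of the 29 members with its 95% interval from limma; filled points are genes whose groups do not overlap, n = 2 samples per group. The interval of Mvd lies just above 0 and that of Srebf1 just reaches it.

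Genes of uptake, storage and efflux had 2 of 6 members averaging higher and 4 lower in GDNF ovaries, and a median of -0.11. That median was -0.024 without control replicate 1, -0.019 without GDNF replicate 1 and -0.057 without GDNF replicate 2. Soat1, which esterifies cholesterol for storage in lipid droplets, had 405.7 and 400.4 in the controls and 350.9 and 360.4 with GDNF. The replicates were close and the groups did not overlap, at 403 ± 3.75 against 356 ± 6.72 (0.88-fold, log2 difference -0.18, SE 0.11, 95% interval -0.43 to 0.074, limma unadjusted p = 0.138). With each sample left out in turn Soat1 ran from -0.20 to -0.16. A dimmer probe set of Soat1 was uneven, at 46.9 and 48.0 in the controls and 79.9 and 33.8 with GDNF.

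Abcg1, an exporter of cholesterol to high-density lipoprotein, had 235.1 and 240.7 in the controls and 287.1 and 260.8 with GDNF. Both GDNF samples were above both controls (1.15-fold, log2 difference 0.20, SE 0.12, 95% interval -0.088 to 0.49), while its dimmer probe set, at 33.0 and 34.3 against 31.7 and 30.3, was lower without overlap. Abca1, the exporter to lipid-poor apolipoproteins, had 382.2 and 293.4 in the controls and 366.8 and 247.5 with GDNF, so replicate 1 was the higher in each group (-0.15, SE 0.21, 95% interval -0.65 to 0.35). Without GDNF replicate 2 the difference of Abca1 was 0.13 and without GDNF replicate 1 it was -0.43. Its 3 dimmer probe sets had overlapping groups and differences of 0.10, -0.11 and -0.04.

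Npc2, which carries cholesterol out of the lysosome, had 1213.9 and 1191.5 in the controls and 1159.2 and 1147.9 with GDNF, a 0.96-fold ratio without overlap (-0.06, SE 0.09). Lipa, the lysosomal lipase that frees cholesterol from its esters, had 255.8 and 306.6 in the controls and 268.4 and 349.1 with GDNF (0.13, SE 0.17). Stard4, a cytosolic sterol carrier, had 88.9 and 87.8 in the controls against 56.4 and 90.2 with GDNF, and GDNF replicate 1 alone was apart (-0.30, SE 0.24). Without GDNF replicate 1 Stard4 was 0.03, and without GDNF replicate 2 Lipa was -0.06.

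Separate probe sets of one gene often differed in direction. Of the 29 members, 14 had over 1 probe set tested, and 7 of their 17 dimmer probe sets (41.2%) shared the direction of the brightest, against 62.7% of 3639 over all genes. Opposite signs occurred in 9 genes. Among the 14 members with over 1 probe set tested, Srebf1 alone had a difference beyond 0.2 of the same sign in each. With the mean over all probe sets in place of the brightest, 14 members were higher and 15 lower, and the median of the 29 was -0.013.

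**Figure D4:**
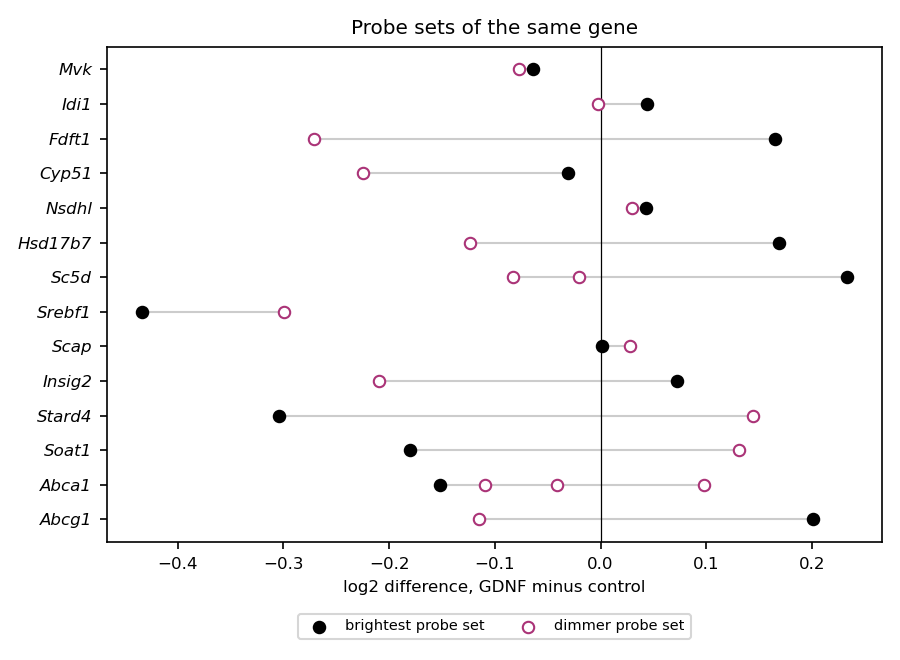
Log2 difference (GDNF minus control) of the brightest (filled) and the dimmer (open) tested probe sets of the 14 members with over 1, joined by a line for each gene. Lines cross 0 for 9 genes, and the points of Srebf1 lie at -0.43 and -0.30.

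Other genes around the pathway, from lists of related steps, had medians from -0.12 to 0.01. Of 14 genes tested for SREBP processing and the side branches of mevalonate, 7 were higher and 7 lower, with Mbtps2, the site-2 protease that releases SREBP, at 222.3 and 271.3 in the controls and 293.3 and 302.9 with GDNF (0.28, SE 0.14), and Pggt1b, a subunit of geranylgeranyl transferase, at -0.13 (SE 0.14). Of 18 sterol carriers and lipoprotein genes, 9 were higher and 9 lower. Among them Osbp, an oxysterol-binding transfer protein, had 0.21 (SE 0.13) and Scarb1, which takes up cholesterol from high-density lipoprotein, read 163.2 and 214.4 in the controls and 156.3 and 138.7 with GDNF (-0.34, SE 0.17). Of 5 oxysterol and steroid genes tested, 2 were higher and 3 lower, and Hsd3b1, which makes progesterone, had 405.3 and 344.4 in the controls and 550.4 and 514.5 with GDNF (0.51, SE 0.12, limma adjusted p = 0.999). None of these lists' genes passed the adjusted threshold, and Hsd3b1, Tspo (lower) and Mid1ip1 (lower) were the genes of the 4 lists with an unadjusted p under 0.05.

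The fatty acid genes known as targets of SREBP-1 lay mostly on the same side as Srebf1. Of 14 tested, 4 averaged higher and 10 lower in GDNF ovaries, with a median of -0.12, where 48.6% of all genes averaged higher. Mid1ip1, which activates acetyl-CoA carboxylase, had 717.8 and 731.0 in the controls and 538.6 and 600.5 with GDNF (-0.35, SE 0.11, limma unadjusted p = 0.0137, adjusted p = 0.999), and Pnpla3 had 0.23 (SE 0.22). The groups did not overlap in 5 lower genes of this list, Mid1ip1, Fasn, Fads1, Acly and Elovl5, and in 3 higher ones, Pnpla3, Acss2 and Acaca, where 18.1% of all genes were lower and 13.8% higher without overlap. The count of directions, 4 higher and 10 lower, rests on GDNF replicate 2, without which 7 were higher and 7 lower (median 0.019). Srebf1 was lowest in that sample, whereas the 14 targets were lowest in GDNF replicate 1 for 5 genes and in GDNF replicate 2 for 5. Over all genes these shares were 31% and 25.5%. Mid1ip1, Fasn, Fads1 and Elovl5 were lowest in GDNF replicate 1, and Acly in GDNF replicate 2. Whether synthesis and fatty acid genes differed from each other was not tested.

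**Figure D5:**
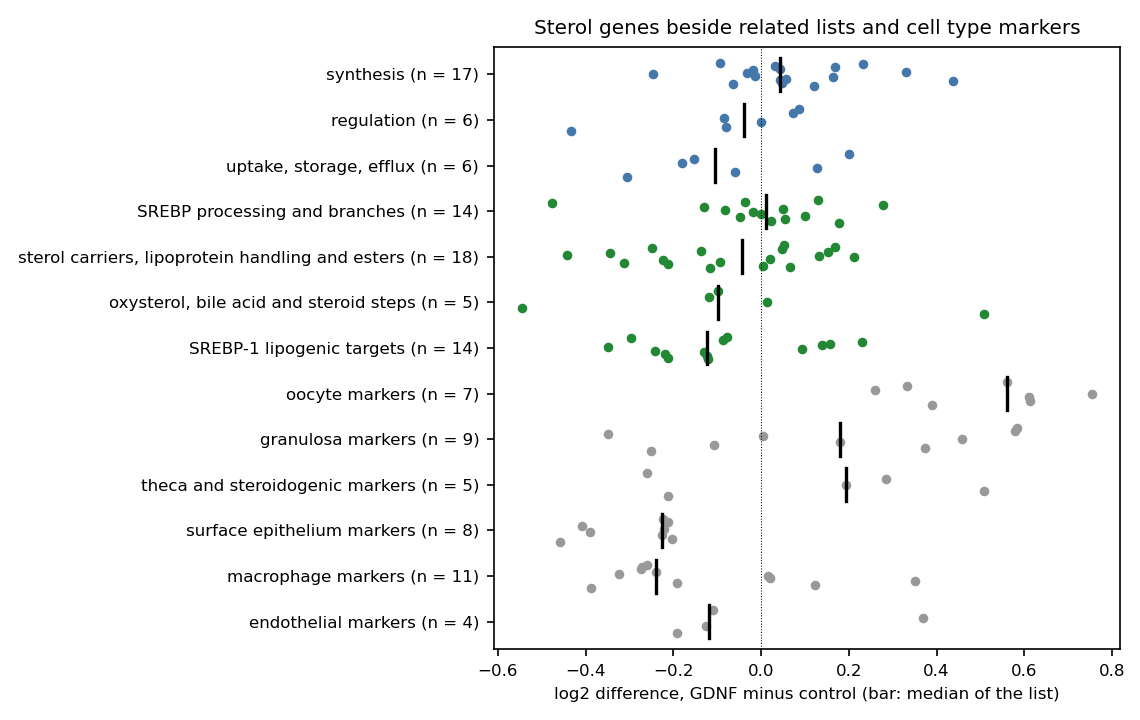
Log2 differences (GDNF minus control) of the sterol genes by role (blue), of related lists (green) and of cell type markers (grey); each point is a gene, bars are medians, n is the number of genes tested. Lists of sterol synthesis and regulation centre near 0, and oocyte markers lie above it.

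Markers of ovarian cell types had larger median differences than the sterol genes, at 0.56 for oocyte and -0.23 for surface epithelium markers. Ovarian markers were present, with 7 of 7 oocyte and 9 of 9 granulosa markers on the array above the filter, while 3 of 4 liver markers, Alb, Apoa1 and Serpina1, lay below it. Ttr, the other liver marker, passed with low signals of 12.8 and 26.1 in the controls and 35.6 and 24.9 with GDNF, which overlapped. All 7 oocyte markers had a higher mean in GDNF samples, and their signals summed to 4008 and 5015 in the controls and 5329 and 6696 with GDNF, with control replicate 1 the lowest; without it the median of the 7 was 0.29. Of the 9 granulosa markers 6 averaged higher and 3 lower with GDNF (median 0.18). Of 5 theca and steroidogenic markers tested 3 averaged higher and 2 lower (median 0.19). That median is the value of Cyp17a1 (SE 0.39), whose signals were low, at 17.8 to 36.8. Only Hsd3b1 of the 5 had groups that did not overlap, and Cyp11a1 and Insl3 lay below the filter. All 8 surface epithelium markers tested were lower (summed signal 8280 and 7202 in the controls, 6805 and 6302 with GDNF), and 5 of 8 were lower without control replicate 1, with a median of -0.089. Of 11 macrophage markers, which belong to cells rich in Abca1, Npc2 and Lipa, 7 were lower (summed signal 1504 and 1308 in the controls, 1484 and 1222 with GDNF). Cd14 and Lyz2 gave most of that sum, at 485.3 and 449.0 in control replicate 1, and the other markers were dim. Lower were 2 of 4 with the 60th percentile filter and 6 of 11 with the mean over probe sets. Without GDNF replicate 2, 6 of 11 were lower, and without GDNF replicate 1, 10 of 11. Control replicate 1 held the highest signal for 7 of the 11 (27.3% of all genes), and GDNF replicate 2 the lowest for 9 (25.5% of all genes). Abca1 had both of these extremes in its brightest probe set, and Npc2 had both as well, at 1213.9 and 1147.9. The 3 dimmer probe sets of Abca1 were highest in GDNF replicate 1. Their lowest signals were 63.7 and 36.9 in GDNF replicate 2 and, for the other, 113.4 in control replicate 2. Lipa was lowest in control replicate 1 and highest in GDNF replicate 2. Of 8 adipocyte markers on the array 2 passed the filter. Lpl, lipoprotein lipase, had 152.2 and 100.7 in the controls and 139.8 and 104.7 with GDNF (-0.03, SE 0.24), and Fabp4, a fatty acid carrier of fat cells and endothelium, had 83.3 and 22.2 in the controls and 32.2 and 8.8 with GDNF (-1.29, SE 0.73), with overlapping groups in each. The part of these markers' cells in the differences of Srebf1, Soat1 and the exporters was not tested.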

How the data were processed

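The authors deposited linear array intensities; the submitters' processing notes name MAS5, with no version. MAS5 subtracts a mismatch estimate, so dim signals are noisy, and detection calls were not used here. Of 31099 probe sets, 57 control probe sets were left out; 20826 of the others had 1 symbol in GEO's platform annotation, 436 several and 9780 none. The values used are log2(signal + 1). The 18625 probe sets whose mean reached the 40th percentile, near a signal of 21.4, were tested with limma 3.58.1 in R 4.3.3 (mean-variance trend, group as the only term, two-sided), with Benjamini-Hochberg adjustment over all of them and a threshold of 0.05. The fit leaves 2 residual degrees of freedom and was tested on simulated data. Intervals cover single genes without adjustment.

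The members, the lists of other genes and the tests were chosen with earlier results of these data known. Signals in all 4 samples are given for members with an unadjusted p under 0.05 or groups that do not overlap and for Sqle, Srebf2, Insig1 and Abca1; those of other members, and other genes beyond the largest non-overlapping difference of each list in each direction, were named after their values were seen. Lists are described by counts and medians beside all genes. All 30 Entrez identifiers of the members with a probe set were in the RefSeq table of GRCr8, with 0 symbols changed. Alternatives were an offset of 16, other filters, quantile normalization, median centring, no trend, the replicate number as a block, the mean over probe sets and each sample left out.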

Additional observations from a re-analysis of the deposited data

How the results depend on the processing

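Under every alternative run, 0 members passed the adjusted threshold, and 14 to 17 had a higher mean in GDNF. With the replicate block, 8 probe sets passed over the whole table, 0 of them members, in a fit with 1 residual degree of freedom; the smallest adjusted p of a member was then 0.451 (Srebf1). Members with an unadjusted p under 0.05, 1 higher and 0 lower as reported, numbered 2 higher and 1 lower with the block. They numbered 1 and 1 with quantile normalization, median centring or no filter. Over all probe sets tested, 508 had such a p as reported, 1355 with the block, 567 with quantile normalization and 484 with median centring. Without the filter 1093 of 31042 did. These counts are not given for the fits with 1 sample left out, which leave 1 sample in a group. Over all alternatives the smallest adjusted p of a member was 0.2575, for Srebf1 without GDNF replicate 1. What the replicate number marks is not stated (same-numbered deviations correlated at 0.32); with 1 sample of each group per number, the block leaves every difference as it was and alters only its error. Small signals and 2 arrays a group limit all values.

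Medians over lists are small, so modest changes move them beyond the spread of the samples. Without the filter, the regulation median became 0.00090 with Nr1h3 added. With the mean over all probe sets of a gene, the medians were -0.013 for all members, -0.074 for regulation and -0.038 for uptake, storage and efflux, and Fdft1 (-0.053) and Insig2 (-0.069) turned. With quantile normalization Scap turned (-0.0050). With each sample left out in turn, the median ran from 0.0082 to 0.042 for all members, 0.014 to 0.077 for synthesis, -0.033 to 0.020 for regulation and -0.13 to -0.019 for uptake, storage and efflux.

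Where the groups of a gene do not overlap, leaving out 1 sample cannot turn its direction. Direction held in 14 of 29 members, 9 higher and 5 lower, with each sample left out. The 10 members without overlap are among these 14, so for them the result was fixed in advance. Direction turned in 15 members. These ran from -0.36 to 0.24 for Mvk, -0.043 to 0.14 for Pmvk, -0.30 to 0.39 for Idi1, -0.16 to 0.13 for Sqle, -0.10 to 0.042 for Cyp51, -0.12 to 0.079 for Msmo1, -0.14 to 0.48 for Hsd17b7, -0.35 to 0.41 for Ebp, -0.061 to 0.53 for Sc5d, -0.32 to 0.13 for Dhcr7, -0.22 to 0.058 for Srebf2, -0.087 to 0.089 for Scap, -0.64 to 0.030 for Stard4, -0.061 to 0.32 for Lipa and -0.43 to 0.13 for Abca1. The count of synthesis genes with a higher mean, checked after seeing the data, was 10 to 12 in all alternatives, with 16 or 17 tested. That of the fatty acid targets was 2 to 7, and the number tested varied. It was 2 of 11 with the 60th percentile filter and 2 of 14 with the mean over probe sets. Without the filter it was 6 of 16, and without GDNF replicate 2 it was 7 of 14. The cause of these changes was not tested.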
